A study of Mus musculus with 10 samples.

Results

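The course of mouse embryonic fibroblasts under OKS + FoxO6 is described here, that is the 5 libraries labelled OKS+FoxO6 at day 0, 1, 3, 5 and 7, out of 10 libraries in the series. The libraries were chosen by their labels alone. The cells, labelled MEF, came from E13.5 embryos of the strain CBA/CaJ X C57BL/6J, and the methods name fibroblasts with an Oct4-GFP reporter. All libraries of the course carry retroviral Oct4 (Pou5f1), Klf4 and Sox2, called OKS, together with FoxO6, from virus made in PlatE packaging cells. By the methods, fibroblasts were cultured in DMEM with serum. After infection they were induced in iCD1 medium, a serum-free medium for making induced pluripotent stem cells. Whether the day 0 cells had been in iCD1 is not stated, so changes from day 0 cannot be told apart from effects of the medium. The other 5 libraries carry OKS with the red fluorescent protein DsRed (OKS+DR) and serve here only to show where the course differs. RNA was taken up with TRIzol, and the labels name a VAHTS mRNA-seq kit of Vazyme while the methods name a TruSeq kit. There was 1 library per day and nothing says whether the days came from separate cultures, so single differences between days carry no test and the trend test below measures the scatter of these 5 libraries around a line. Every change from day 0 shares the same day 0 library. The libraries are bulk RNA, in which fewer cells of a type and less RNA per cell cannot be told apart.

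Reprogramming by OKS starts with the loss of the fibroblast program. Fibroblasts give up contractile fibres and collagen-rich matrix, gain junctions and keratins in a mesenchymal-to-epithelial transition, and switch on the genes of the pluripotent state last. FoxO proteins are forkhead transcription factors, and in many cells they raise genes of stress resistance, autophagy and cell cycle arrest. Interferon-stimulated genes answer to viral nucleic acid and cytokines, and many carry the interferon-stimulated response element (ISRE) in their promoters.

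The libraries held between 1560854 and 2225750 expected counts, the estimated reads per gene of the program RSEM, over 50600 genes. A gene was called measured when 1 of the 5 libraries gave it at least 10 expected counts, which 12575 genes (24.9%) did. A gene with fewer counts than this at day 0 was measured only through a later library with more. This favours gains in lists that start low. Levels are given in TPM, RSEM's unit of transcript abundance, which corrects for transcript length. A change is the log2(TPM + 1) of a day minus that of day 0, and on it the added 1 makes changes of low genes look smaller. A gene was counted as away from day 0 when this difference was over 1 in size, that is 2-fold. The share of counts from the mitochondrial genome was 2.68% at day 0 and between 3.91% and 4.85% later. All 10 fibroblast markers had reads on every day, and their summed TPM went from 3651 at day 0 over 2204, 1985 and 1579 to 1126 at day 7. Of 12 macrophage markers, 3 had no read in any library, and their summed TPM stayed between 23.9 and 31.2. Of 8 pluripotency markers 1 had reads at day 0 and 7 had reads at day 7.

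Foxo6 (ENSMUSG00000052135, chr4:120267079-120287349, minus strand) stood at 1017, 1325, 1356, 1267 and 762.1 TPM over the 5 days, in the order 0, 1, 3, 5 and 7 used for all such values. Pou5f1 had 3386, 4742, 5464, 7071 and 5379, Sox2 2181, 2840, 3109, 3043 and 2624, and Klf4 1958, 2323, 3094, 3517 and 2798. All 4 were already high in the day 0 library, which is thus a library of infected cells, and reads of the viral and the cell's own copy of a factor are counted together. None of the 4 factors had a linear trend past the threshold (edgeR adjusted p = 0.59 for Foxo6, 0.103 for Pou5f1, 0.492 for Sox2 and 0.0896 for Klf4), while DESeq2 called 2 of the 4 rising.

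Over the whole course, 938 genes (7.46%) lay more than 2-fold above day 0 at day 1 and 813 genes (6.47%) lay more than 2-fold below. On TPM, 1448 (11.5%) lay above and 1023 (8.14%) below at day 3, and 1834 (14.6%) and 1167 (9.28%) did so at day 5. Day 7 differed from the days before it, with 1529 genes (12.2%) above and 2092 genes (16.6%) below. The median change of all measured genes was 0.05, 0.09, 0.10 and -0.12 at days 1, 3, 5 and 7. When a gene also had to have a counting interval (exact, 95%) of its read ratio clear of 1, 708 genes (5.63%) lay above and 613 (4.87%) below at day 1, and 1442 (11.5%) and 1838 (14.6%) at day 7. Such intervals cover counting error only.

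By the step from one library to the next, 813 genes (6.47%) went up and 523 (4.16%) down more than 2-fold from day 1 to day 3, and 743 (5.91%) and 376 (2.99%) did so from day 3 to day 5. From day 5 to day 7 it was 407 (3.24%) up and 1527 (12.1%) down, or 573 and 856 in CPM with TMM. The first step from day 0 to day 1, which spans a single day, moved more genes up than any later step of 2 days. The change from day 0 at day 7 ran with transcript length, while the last step was not itself grouped by length. The median change at day 7 went from 0.23 in the eighth of the genes with the shortest transcripts (141 to 1178 nucleotides of effective length, the length a read can start in) to -0.56 in the eighth with the longest (from 5010 nucleotides). In that longest eighth 27.8% of the genes lay more than 2-fold below day 0 and 7.3% above, and in the shortest eighth it was 10.9% and 18.6%.

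**Figure D1:**
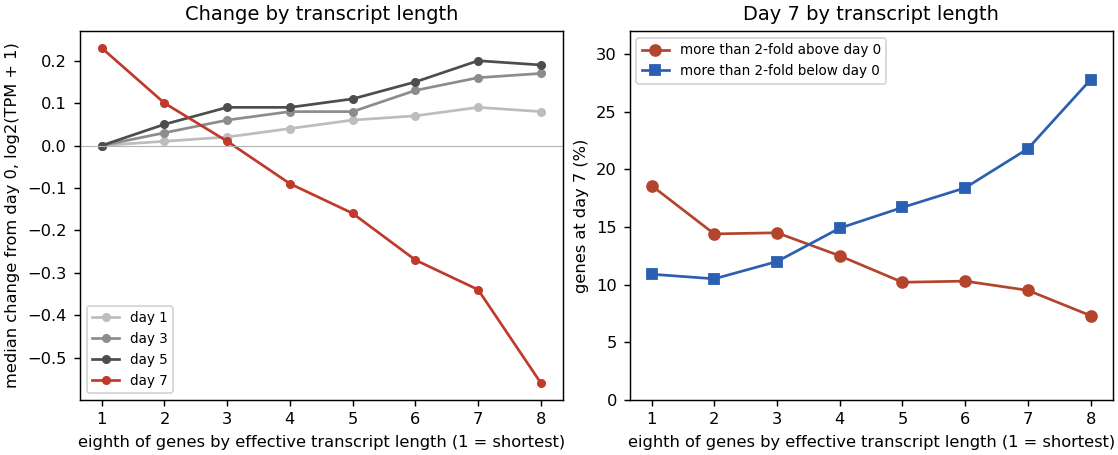
Left, the median change from day 0 in log2(TPM + 1) in 8 equal groups of the 12575 genes by effective transcript length, 1 line per day. Right, the percent of genes more than 2-fold above (red) or below (blue) day 0 at day 7 in the same groups. Days 1, 3 and 5 lie between 0 and 0.20, while day 7 goes from 0.23 to -0.56.

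Across the 12575 genes the Spearman correlation of the day 7 change with effective length was -0.25, against 0.05 at day 1 and 0.07 at days 3 and 5. Genes are not independent replicates and all 4 values share the day 0 library, so these are descriptions. The longest eighth lay 0.79 lower than the shortest at day 7, and 0.08, 0.17 and 0.19 higher at days 1, 3 and 5. In the OKS+DR libraries the correlations with their own day 0 were 0.24, 0.20, 0.17 and 0.14, so FoxO6 day 7 was the one later library of the 8 with a negative value. The median of transcript length minus effective length, taken over longer genes, was 65.9 nucleotides at day 0 of the course and 60.7 at day 7, the lowest of its 5 libraries. It lay between 60.3 and 62.4 in the OKS+DR libraries, and its part in the trend was not tested. With the running median over length taken out, 1725 genes (13.7%) lay above and 1600 (12.7%) below day 0 at day 7, and the last step gave 574 (4.56%) up and 680 (5.41%) down. For the gene lists below, day 7 counts and medians are therefore also given with the length trend removed where that moved them.

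The order of events was read from the day on which a gene first lay more than 2-fold from day 0 and stayed there to day 7. A gene of a later class may have passed 2-fold before and come back. Genes up from day 1, 3, 5 and 7 numbered 418 (3.32%), 401 (3.19%), 341 (2.71%) and 369 (2.93%). Genes down from the same days numbered 361 (2.87%), 270 (2.15%), 271 (2.16%) and 1190 (9.46%), and the last was 648 (5.15%) with the length trend removed. A further 1033 genes (8.21%) passed 2-fold above day 0 at day 1, 3 or 5 and were back by day 7, 550 (4.37%) did so below, and 7371 (58.6%) never passed 2-fold. The surplus of passing gains was not kept, with 729 passing up and 784 down once the length trend was removed and 636 and 648 in CPM with TMM. A straight line over the 5 days, fitted to the rounded counts with edgeR's quasi-likelihood test and 3 residual degrees of freedom, found 621 rising (4.94%) and 623 falling genes (4.95%) at an adjusted p under 0.05. Leaving out a library lowered these counts, to 374 and 274 without day 0, 298 and 358 without day 1, and 330 and 298 without day 5. The words rose and fell are kept below for the genes that passed this test.

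**Figure D2:**
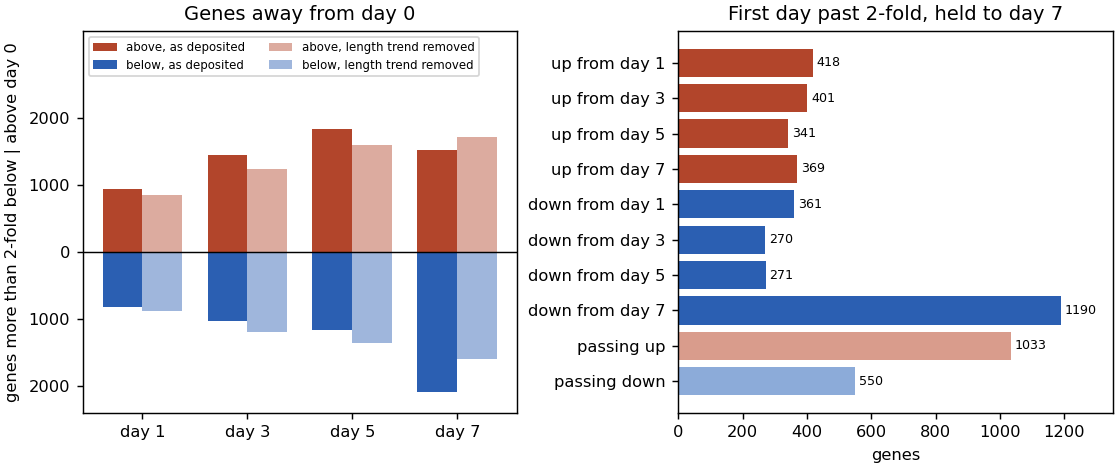
Left, genes more than 2-fold above (red, up) and below (blue, down) day 0 on each later day, in full colour as deposited and in pale colour with the length trend removed. Right, genes by the day from which they stayed past 2-fold up to day 7, and genes that passed 2-fold and came back. The bar of genes down from day 7 (1190) is the longest of the 8 lasting classes.

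The contractile apparatus and the matrix of the fibroblasts were lower from early on. Of 18 actomyosin and smooth muscle genes, 11 were down from day 1 (background 2.87%), 3 from day 3 (2.15%) and 2 from day 5 (2.16%), and 12 fell with a trend (background 4.95%), or 4 without day 0 and 7 without day 5. Their median change was -1.47 at day 1 and -2.46 at day 7 (-2.00 with the length trend removed). Acta2, smooth muscle actin (ENSMUSG00000035783, chr19:34241090-34255590, minus strand), stood at 3673, 232.1, 72.8, 60.3 and 58.4. Tagln, the actin-bundling transgelin (chr9:45929619-45936058), had 1307, 97.7, 13.04, 10.1 and 2.61. Myl9, the regulatory light chain of smooth muscle myosin (chr2:156775420-156781658), had 550.1, 20.5, 6.74, 6.48 and 2.09. All 3 lost most of their level between day 0 and day 1 and stayed low on each later day. Their slopes were -0.81 ± 0.18, -1.55 ± 0.19 and -1.44 ± 0.24 log2 units per day (SE), with edgeR adjusted p of 0.0281, 0.0036 and 0.00937. On counts per library total, Tagln was 387-fold lower at day 7 and Myl9, with 2 reads left, had a ratio of 0.00445 to day 0 (counting interval 0.000538 to 0.0161). Actn4, an actinin of non-muscle cells, stayed within 2-fold (688.2, 709.7, 587.8, 584 and 439.4).

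Of 27 matrix proteins and proteoglycans, 16 were down from day 1 (background 2.87%), 5 from day 3 (2.15%), 1 from day 5 (2.16%) and 2 from day 7 (9.46%), and 13 fell with a trend (4.95%), or 6 without day 0 and 7 without day 5. Their summed TPM went from 11640 on day 0 to 3862 a day later and 1748 by the end, and their median change was -1.61, -2.41, -2.70 and -2.45 over the 4 later days (-2.19 at day 7 with the length trend removed). Lox, the enzyme that crosslinks collagen and elastin, had 533, 84.7, 50.7, 23.9 and 9.75 and fell (edgeR adjusted p = 0.00456). Tnc, tenascin C of wound and tumour matrix, had 546.8, 59.7, 34.2, 17.1 and 6.90, and Fbln5, an organiser of elastic fibres, had 416.3, 44.3, 13.3, 10.3 and 6.20. Both fell (edgeR adjusted p = 0.00626 and 0.012) and were lower in each later library than in the one before. Loxl2, a lysyl oxidase of the same family as Lox, followed later, with 193.9, 99.03, 31.6, 15.0 and 6.60 (edgeR adjusted p = 0.00103). Dcn, decorin, was an exception at 128.3, 168, 125.4, 123.4 and 106.6, within 2-fold of day 0 throughout.

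Collagen genes did not move alike. Of 19 collagen genes 10 lay more than 2-fold below day 0 at day 7 (background 16.6%), or 8 with the length trend removed (background 12.7%). The list holds long transcripts, with a median effective length of 5374 nucleotides, and in the longest eighth of all genes 27.8% lay below. Of the 19, 8 fell with a trend (background 4.95%), or 5 without day 0 and 4 without day 5. Col1a1, a chain of collagen I (chr11:94936224-94953042), had 1087, 256.1, 64.9, 76.2 and 78.8, and Col12a1 255.1, 27.7, 10.6, 7.42 and 5.02. Both fell (edgeR adjusted p = 0.0385 and 0.00453). The partner chain of collagen I, Col1a2, stood at 1336, 1048, 1444, 1119 and 757.6, and the basement membrane chains Col4a1 and Col4a2 at 329.1, 345.7, 555.2, 530.5 and 311 and at 312.9, 293.7, 568.4, 533.3 and 349.2. None of these 3 went past 2-fold on any day, so 2 chains of the same trimer differed by more than 2 log2 units in their change at day 7, -3.77 for Col1a1 and -0.82 for Col1a2. Whether that gap exceeds the scatter between cultures was not tested.

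Surface and cytoskeletal genes of fibroblasts were lower as well. Of 20 such genes 6 were down from day 1 (background 2.87%), 4 from day 3 (2.15%), 2 from day 5 (2.16%) and 4 from day 7 (9.46%), and 13 fell with a trend (4.95%), or 6 without day 0 and 8 without day 5, for a median change of -0.51 at day 1 and -1.77 at day 7 (-1.52 with the length trend removed). Thy1, a surface protein used to sort fibroblasts, had 347.2, 146, 20.3, 17.7 and 18.7 and S100a4, a calcium-binding protein of motile cells, had 1184, 449.6, 40.1, 18.1 and 48.5, and both fell (edgeR adjusted p = 0.021 and 0.0168). Nt5e, the ectonucleotidase CD73, was the exception that rose, with 14.6, 44.4, 121.8, 222.3 and 133.1 (edgeR adjusted p = 0.0287), a call lost without day 0, day 1 or day 5. Of 20 mesenchymal transcription factors measured, 7 lay below day 0 at day 1 (background 6.47%) and 14 at day 7 (background 16.6%), or 11 with the length trend removed (background 12.7%). At day 7, 3 lay above (background 12.2%). Of the 20, 7 were in the class down from day 7 (background 9.46%). A trend was found for 6 falling factors (background 4.95%), or 1 without day 0 and 3 without day 5. Twist2 (74.4, 31.1, 25.1, 9.07 and 7.93) and Prrx2 (52.7, 7.79, 1.67, 6.26 and 0) fell (edgeR adjusted p = 0.0102 and 0.0123). Zeb1, a repressor of E-cadherin, stood at 30.1, 37.1, 42.1, 37.9 and 12.5 and was within 2-fold of day 0 until day 5 (day 7 change -1.21, or -0.82 with the length trend removed), with no trend past the threshold (edgeR adjusted p = 0.122). Foxd1, a forkhead factor of the kidney stroma, rose from 17.0 over 24.3, 83.4 and 245.1 to 241.4 (edgeR adjusted p = 0.002).

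TGF beta signalling favours the mesenchymal state, and of 17 of its ligands, receptors and targets 10 lay more than 2-fold below day 0 at day 7 (background 16.6%), or 9 with the length trend removed (background 12.7%), and none above (background 12.2%). Of the 17, 6 fell with a trend (background 4.95%), or none without day 0, 4 without day 1 and 2 without day 5. Inhba, which codes for the activin A subunit, had 68.7, 29.0, 16.1, 10.1 and 0. It fell (edgeR adjusted p = 0.00896) and was 25.9-fold lower at day 7 on counts per library total with 3 reads in place of 0. The counting interval of its ratio to day 0 ran from 0 to 0.0482. The receptors did not move alike, as Tgfbr2 stood at 181.5, 233.6, 345.8, 359.1 and 204.7 and Tgfbr3 fell from 6.02 over 4.10, 1.86 and 1.22 to 0.56 (edgeR adjusted p = 0.0196).

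**Figure D3:**
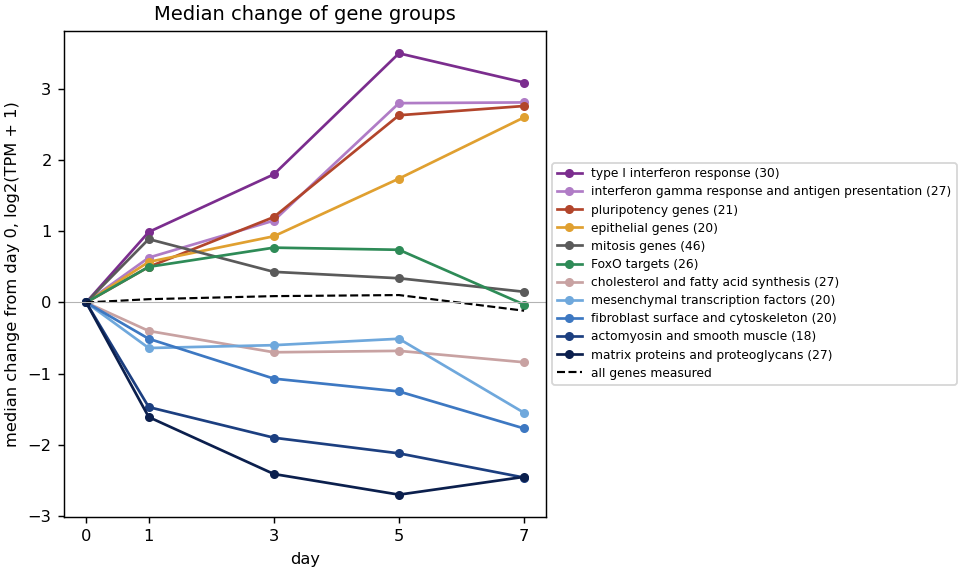
Median change from day 0 in log2(TPM + 1) of 11 gene groups over the 5 days, with the number of genes measured in brackets, and of all measured genes (dashed). The matrix and actomyosin groups are at -1.61 and -1.47 by day 1, whereas the pluripotency group reaches 2.63 at day 5 and the epithelial group 2.60 at day 7.

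Epithelial genes stood higher on each later day by their median. Of 20 measured out of 33 listed, 6 were up from day 1 (background 3.32%), 2 from day 3 (3.19%), 5 from day 5 (2.71%) and 3 from day 7 (2.93%). Members near 0 at day 0 were measured only through a later library in which they were higher, so these counts favour gains. A trend was found for 13 rising genes (background 4.94%) and no falling one, or 7 rising without day 1 and 6 without day 7. Their median change was 0.57, 0.93, 1.74 and 2.60 (2.9 at day 7 with the length trend removed). The day 1 value was 0.22 in CPM with TMM, and the day 3 value was 1.46 with a pseudocount of 0.1. Cdh1, E-cadherin (chr8:106603351-106670246), had 0.58, 3.35, 2.55, 14.0 and 28.9, with 2 reads at day 0 and 113 at day 7, and a read ratio of 80.6 (counting interval 21.8 to 673). Its day 1 TPM also rests on 2 reads, and RSEM sets the effective length of a gene from the isoforms it fits in each library. Epcam, an adhesion protein of epithelia (chr17:87635979-87651129), had 0, 3.69, 3.11, 23.5 and 59.3, and was 49.9-fold higher at day 7 with 3 reads in place of 0. Krt8, a keratin of simple epithelia, had 0.52, 2.09, 4.71, 14.2 and 37.1. These 3 rose with edgeR adjusted p of 0.00107, 0.00346 and 0.00217. The tight junction gene Cldn7 had reads at day 5 and day 7 alone (0, 0, 0, 0.78 and 10.2, edgeR adjusted p = 0.0229). Krt19, another simple keratin, went the other way and returned, with 30.3, 4.02, 3.39, 3.26 and 26.3, and Esrp1, Grhl2, Ovol1 and Ovol2, regulators of the epithelial state, stayed below 10 reads in every library.

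Pluripotency genes came on in part. Of 41 listed, 21 were measured, and of these 4 were up from day 1 (background 3.32%), 7 from day 3 (3.19%), 3 from day 5 (2.71%) and 2 from day 7 (2.93%), with 11 rising (4.94%), or 8 without day 5 and 9 without day 7, and none falling. Klf5 was the 1 member in the class down from day 7 (9.46%). Their median change was 0.50, 1.2, 2.63 and 2.76 (2.92 at day 7 with the length trend removed). These genes start at or near 0, and with a pseudocount of 0.1 the medians were 1.1, 2.85, 4.58 and 5.7. Such genes were measured only through a later library in which they were higher, so the counts and medians of this list favour gains. Tdh, threonine dehydrogenase of mouse pluripotent cells (chr14:63492347-63509092), had 0, 2.49, 12.98, 75.04 and 127.8. Alpl, the alkaline phosphatase used as a stain for reprogrammed colonies, had 0, 0.99, 5.01, 37.7 and 109.1. Both rose steeply, by 1.06 ± 0.11 and 1.19 ± 0.08 log2 units per day (SE, edgeR adjusted p = 0.00193 and 0.00103). Sall4, a zinc finger factor of the pluripotency network, rose from 0 over 1.1, 1.45 and 11.8 to 16.1 (edgeR adjusted p = 0.0142). Zfp42 (Rex1), a marker of naive cells, had 0, 0, 1.22, 9.97 and 12.6, and Nanog, a core factor of the network (chr6:122707489-122714633), had 0, 0, 0, 1.02 and 8.31 from 0, 0, 0, 2 and 16 reads. Both rose (edgeR adjusted p = 0.0196 and 0.0112), and Nanog was 7.61-fold higher at day 7 with 3 reads in place of 0. Dppa2, Dppa3, Dppa4, Lin28a, Dnmt3l and Otx2 had no read in any of the 5 libraries. Esrrb had at most 8 reads, Dppa5a 5, Utf1 1 and Tdgf1 2. At this depth a low level of these genes was not detectable.

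**Figure D4:**
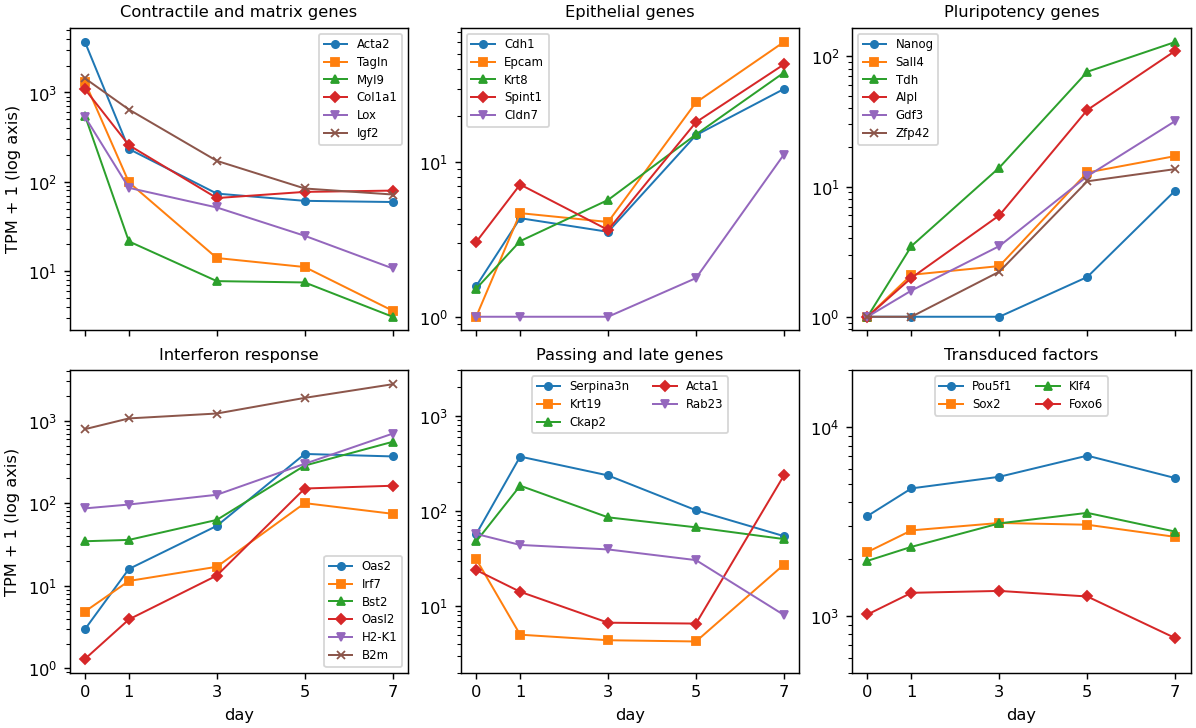
TPM + 1 on log axes against day for named genes in 6 panels, 1 point per library, with a range of its own in each panel. Acta2 goes from 3673 to 232.1 TPM by day 1, Oas2 goes from 52.3 TPM at day 3 to 394.9 by day 5, and the 4 transduced factors are high from day 0.

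All 30 type I interferon genes on the list were measured, 28 lay more than 2-fold above day 0 at day 5 (background 14.6%) and at day 7 (background 12.2%), and 24 rose with a trend (background 4.94%), none falling, or 16 without day 0 and 15 without day 1. By onset 14 were up from day 1 (background 3.32%), 10 from day 3 (3.19%) and 4 from day 5 (2.71%). Their median change was 0.99, 1.80, 3.5 and 3.09 (3.5 at day 7 with the length trend removed), and their summed TPM was 212.6, 390.9, 681.6, 2449 and 2445. The promoter windows of 2 of these genes are printed because the core letters of the ISRE stand in them. They are RefSeq windows of GRCm38.p6 from 250 bases before to 50 after the start, read in the direction of the gene, Ifit1 at chr19:34640639-34640938 (plus strand) and Isg15 at chr4:156200769-156201068 (minus strand), with the letters GAAANNGAAA or, on the other strand, TTTCNNTTTC in capitals.
Ifit1: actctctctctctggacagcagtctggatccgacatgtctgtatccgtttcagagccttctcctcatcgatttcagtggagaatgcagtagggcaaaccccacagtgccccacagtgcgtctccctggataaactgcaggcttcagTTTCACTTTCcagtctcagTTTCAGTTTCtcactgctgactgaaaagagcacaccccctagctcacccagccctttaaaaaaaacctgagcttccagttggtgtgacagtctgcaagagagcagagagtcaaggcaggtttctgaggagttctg
Isg15: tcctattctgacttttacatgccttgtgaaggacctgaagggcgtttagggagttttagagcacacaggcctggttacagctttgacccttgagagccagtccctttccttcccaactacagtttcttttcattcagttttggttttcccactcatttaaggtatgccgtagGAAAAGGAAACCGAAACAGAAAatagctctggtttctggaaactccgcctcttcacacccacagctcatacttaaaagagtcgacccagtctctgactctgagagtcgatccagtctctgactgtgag
The matches in Isg15 overlap each other. Of the 30 genes 20 had an entry among the RefSeq promoters and 10 of these (50%) held the motif, against 3.99% of the 27025 genes with an entry and 3.75% of the 9308 measured ones. The matrix list, whose genes went down, held it in 4 of 15 promoters (26.7%). Such a match is a string of letters and does not show binding.

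Ifit1, an RNA-binding antiviral protein, had 0.70, 2.34, 6.33, 20.5 and 20.7, and Isg15, a ubiquitin-like protein, had 2.63, 0, 17.8, 82.5 and 75.5. Both rose (edgeR adjusted p = 0.00724 and 0.0146). Oas2, an enzyme that activates RNase L (chr5:120730333-120749853), had 1.98, 15.0, 52.3, 394.9 and 368.5, with 6 reads at day 0 and 1056 at day 7, and it rose by 1.03 ± 0.15 log2 units per day (SE, edgeR adjusted p = 0.00573). Oasl2, its relative, had 0.30, 2.92, 12.3, 150 and 162.1, and the genes of this family are alike in sequence, so reads may be split among them. Transcription factors of the response were higher as well. Stat2 had 16.9, 36.4, 61.5, 140 and 70.6, Irf9 14.3, 17.8, 34.3, 81.7 and 72.1, and Irf7 3.88, 10.5, 16.0, 99.5 and 73.6, and all 3 rose (edgeR adjusted p = 0.0246, 0.00609 and 0.00854). The sensors of viral RNA Ddx58 (13.3, 31.98, 58.7, 160.1 and 134.2) and Ifih1 (2.50, 4.62, 5.89, 26.9 and 16.8) rose too (edgeR adjusted p = 0.00321 and 0.0169). Bst2, tetherin, which holds budding virus at the cell surface, came later, with 33.7, 35.0, 61.9, 285.4 and 554.4. The list had 2 exceptions, Trim25 within 2-fold on every day and Ifit2, which stood at 9.66, 8.42, 4.82, 6.30 and 1.78.

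Of 27 genes of the interferon gamma response and antigen presentation measured out of 34 listed, 5 were up from day 1 (background 3.32%), 10 from day 3 (3.19%) and 9 from day 5 (2.71%), and 21 rose with a trend (4.94%), none falling, or 14 without day 0. Their median change was 0.63, 1.15, 2.80 and 2.81 (2.86 at day 7 with the length trend removed). The MHC class I heavy chain H2-K1 had 85.8, 95.6, 125.8, 299.9 and 696.9, its light chain B2m had 789.5, 1066, 1222, 1891 and 2768, and the peptide transporter Tap1 had 3.19, 8.52, 15.5, 44.7 and 41.8. All 3 rose (edgeR adjusted p = 0.0028, 0.00573 and 0.00498), though class I genes share much of their sequence and their reads may be split. Tgtp1, an interferon-induced GTPase with a near-identical neighbour in Tgtp2, had 0, 0, 9.92, 91.9 and 99.1. The feedback inhibitor Socs1 stood at 17.3, 8.40, 6.21, 8.52 and 6.74, and Cxcl9, Cxcl10, Ciita and Cd74, genes strongly driven by interferon gamma in immune cells, had at most 5 reads in a library. Of the 21 genes with a promoter entry 11 (52.4%) held the GAAANNGAAA motif, against 3.99% of all genes with an entry and 3.75% of the measured ones. Of 21 chemokines and inflammatory genes measured, 4 lay above (background 12.2%) and 5 below day 0 (background 16.6%) at day 7, with a median change of 0.13. With a trend 2 rose (background 4.94%) and 3 fell (background 4.95%), or none and 2 without day 1, 1 and 2 without day 5, and 1 and 1 without day 7. The chemokine Ccl8 had 0, 13.6, 59.6, 193.6 and 161.2 and rose (edgeR adjusted p = 0.0169), while Laptm5, a lysosomal protein of blood cells, rose from 2.77 to 30.4 (edgeR adjusted p = 0.00609) and Cd68, which marks macrophages, stayed between 15.8 and 24.4.

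The CArG box, the site of serum response factor, was sought in the same way in the actomyosin list, where 3 of 15 promoters held it (20%), those of Cnn2, Myl9 and Vcl, against 1.81% of all genes with an entry. The window of Myl9, at chr2:156775214-156775513 on the plus strand, is shown because Myl9 had the largest change of the list at day 1, -4.68, with the box in capitals.
Myl9: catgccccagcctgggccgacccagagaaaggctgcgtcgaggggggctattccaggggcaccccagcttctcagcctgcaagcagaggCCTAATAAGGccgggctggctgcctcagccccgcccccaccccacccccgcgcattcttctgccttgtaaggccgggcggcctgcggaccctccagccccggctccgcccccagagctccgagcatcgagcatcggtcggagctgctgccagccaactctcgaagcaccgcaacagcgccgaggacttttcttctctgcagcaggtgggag
The windows of Cnn2 and Vcl belong to genes of smaller changes, -2.79 and -1.75 at day 7. The forkhead motif GTAAACA, or TGTTTAC on the other strand, stood in 3 of 22 promoters (13.6%) of a list of known FoxO targets, those of Bcl2l11, Sesn1 and Txnip, against 4.05% of all genes with an entry. Among the genes up from day 1 it stood in 14 of 290 (4.83%) and among those down from day 1 in 10 of 248 (4.03%), against 3.04% of the measured ones.

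FoxO targets themselves showed a mixed course. Of 26 measured, 6, 8, 8 and 6 lay more than 2-fold above day 0 on the 4 later days, where 7.46%, 11.5%, 14.6% and 12.2% of all measured genes did, and 1, 1, 1 and 3 lay below, where 6.47%, 8.14%, 9.28% and 16.6% did. With the length trend removed 7 lay above and 1 below at day 7. A rising trend was found for 3 (background 4.94%), or none without day 0, day 1 or day 5. The median change was 0.50, 0.77, 0.74 and -0.03, and the day 7 value was 0.41 with the length trend removed, the opposite sign. Sepp1, the plasma selenium carrier, had 327.1, 958.3, 2158, 2432 and 1949, with no trend past the threshold (edgeR adjusted p = 0.0586). Foxo4, a sister of Foxo6, had 20.5, 38.4, 57.3, 113.1 and 75.3, Ddit4, an inhibitor of mTOR, had 30.04, 38.1, 97, 104.9 and 85.7, and Pink1, a kinase of mitochondrial quality control, had 34.5, 58.9, 64.3, 84.9 and 79.1. These were the 3 that rose (edgeR adjusted p = 0.0228, 0.0463 and 0.0463). Several targets passed 2-fold and came back, such as Sod2, the mitochondrial superoxide dismutase, with 31.1, 73.0, 73.6, 61.9 and 53.7 (day 7 change 0.77, or 1.07 with the length trend removed), and Ccng2, an atypical cyclin, with 7.98, 21.4, 17.3, 16.5 and 6.41. Catalase (Cat), often cited as a FoxO target, stayed between 154 and 179.7. Of 43 core autophagy genes 34 never passed 2-fold, as 58.6% of all measured genes did not, and the median change was 0.16, 0.17, 0.25 and -0.05 (0.06 at day 7 with the length trend removed). Optn, a receptor for selective autophagy, rose from 42.4 over 94.8, 167.2 and 214.9 to 188.9 (edgeR adjusted p = 0.0232), a call lost without day 0, day 1 or day 5, and Wipi1 fell from 55.1 to 14.8 (edgeR adjusted p = 0.0115).

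Mitosis genes peaked at day 1. The number of the 46 that lay more than 2-fold above day 0 was 15, 2, 1 and 1 on the 4 later days (2 at day 7 with the length trend removed), where 7.46%, 11.5%, 14.6% and 12.2% of all measured genes did, none lay below on any day and none had a linear trend past the threshold in edgeR or in DESeq2. Their median change was 0.89, 0.43, 0.34 and 0.15 (0.26 at day 7 with the length trend removed and 0.33 in CPM with TMM), and their summed TPM was 2060, 3717, 2699, 2572 and 2468. Ckap2, a spindle protein, had 46.9, 183.7, 84.9, 66.4 and 49.8, Mki67, the proliferation antigen, had 51.2, 118.7, 83.9, 90.6 and 58.2, and Top2a, which untangles chromosomes, had 88.1, 189.3, 146.2, 120.3 and 142.1. All 3 were highest at day 1. The 48 S phase genes moved little, with a median of 0.17 at day 1 and -0.28 at day 7 (-0.10 with the length trend removed) and 35 that never passed 2-fold (background 58.6%). Among 31 CDK inhibitors and p53 targets, 5 were up from day 1 (background 3.32%). At day 7, 6 lay above day 0 (background 12.2%) and 4 below (background 16.6%), or 2 below with the length trend removed (background 12.7%), and the median change was -0.16 (-0.06 with the length trend removed and 0.04 in CPM with TMM). None rose (background 4.94%) and 1 fell (background 4.95%) with a trend, the latter lost without day 1, 3, 5 or 7, while DESeq2 called 2 rising and none falling. Cdkn2a, the locus of p16 and p19ARF, had 13.4, 42.8, 50.2, 41.7 and 99.5 with 12 reads at day 0 and 72 at day 7, and Bbc3, a p53 target of apoptosis, had 6.22, 19.8, 35.4, 22.4 and 28.4, with trends short of the threshold (edgeR adjusted p = 0.0583 and 0.446).

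The largest gain at day 7 among the named genes was that of Trh, thyrotropin-releasing hormone (chr6:92242061-92244650, minus strand), with 5.50, 25.8, 447.3, 1676 and 2610 and an edgeR adjusted p of 0.0044. It went from 8 to 3092 reads, a ratio of 551 on library totals (counting interval 279 to 1280). Pcsk1n, an inhibitor of prohormone convertase, followed the same order, with 5.54, 44.5, 306.3, 539.5 and 709.7 (edgeR adjusted p = 0.0146). The foremost genes up from day 1 were Prkcb, a protein kinase C (1.02, 61.2, 311, 300.1 and 233), Avil, an actin-severing protein (2.75, 66.2, 179.9, 256 and 336.3), Oit1 (0.76, 25.6, 36.3, 127 and 135.1) and Cnpy1 (0, 13.9, 55.3, 106.3 and 98.4). Prkcb had its highest TPM at day 3 and had no linear trend past the threshold (edgeR adjusted p = 0.222), and the other 3 rose (edgeR adjusted p = 0.0463, 0.0154 and 0.0358). From day 3 the foremost were Try5, Aoc1, Dmrtc2 and Nat8f6, of which Aoc1, a diamine oxidase, went from 0 and 0.47 to 15.5, 49.8 and 99.5. From day 5 they were Fam19a4, Morc1, Col17a1 and Bst2, and Morc1, a germ cell gene, had 0, 0.81, 0.69, 7.93 and 18.7 (edgeR adjusted p = 0.00522).

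Among genes with at least 30 counts, the largest gains in the class up from day 7 were those of Acta1, Rundc3a, Rpl10 and Taf9. Acta1, skeletal muscle actin (chr8:123891769-123894751), had 22.98, 13.2, 5.71, 5.57 and 235.5, and its reads were 35, 15, 4, 5 and 238. It had no linear trend past the threshold (edgeR adjusted p = 0.139), and the day 7 library alone was high. Rpl10 had already been past 2-fold at days 1 and 3 (1.11 each) and Taf9 at day 1 (1.02). Taf9 also had no read at day 5, a change of -3.58, against 2.50 at day 7. Rpl10 has processed copies in the genome and Taf9 shares its locus with another gene, so their reads may be split. The largest losses in the class down from day 7 were those of Zbed6, Rab23, Myo5a and Lrch2. Rab23, a negative regulator of hedgehog signalling, fell over 56.5, 43.1, 38.5, 29.5 and 7.09 (edgeR adjusted p = 0.0168), and the day 7 change was -2.83, or -2.67 with the length trend removed. Zbed6 lies inside an intron of another gene and had 15.9, 0.34, 15.4, 18.4 and 0.62, so it was also low at day 1, on 1 read. Passing gains were led by Serpina3n, a serpin of the acute phase (56.2, 372.4, 235.8, 101 and 53.5), Kank3, Nlrc5 (day 7 change 0.98, or 1.24 with the length trend removed) and Nphp4, and passing losses by Krt19, Sfn, Igfbp2 (day 7 change -0.85, or -1.02 with the length trend removed) and Gadd45b, the last a stress gene with 27.7, 2.99, 10.9, 11.3 and 24.7. Both Serpina3n and Gadd45b stood farthest from day 0 in the day 1 library.

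Skeletal muscle, endothelial and imprinted genes moved in parts. Of 26 skeletal muscle genes 10 were measured, and Myod1, Myog and Myf5, the factors that set muscle fate, were not among them. The heavy chains Myh1 (2.23, 4.50, 17.0, 32.6 and 53.3) and Myh2 (0.66, 1.93, 12.5, 21.7 and 25.4) rose (edgeR adjusted p = 0.00146 and 0.0106), and Des, desmin of muscle filaments, fell from 19.3 to 0.38 (edgeR adjusted p = 0.00933), a call lost without day 0. Of 11 endothelial markers, Pecam1, Cdh5, Vwf and 5 others stayed below 10 reads, while the receptors Kdr (1.70, 10.6, 44.6, 38.4 and 20.8) and Tek (27.6, 54.2, 92.9, 103.7 and 69.8) lay above day 0 and Flt1 fell from 16.1 to 0.88 (edgeR adjusted p = 0.0156). The call for Flt1 was lost without day 0 or day 5. Of 20 imprinted genes measured 12 lay more than 2-fold below day 0 at day 7 (background 16.6%), or 10 with the length trend removed (background 12.7%), and 6 fell (background 4.95%). Igf2, the fetal growth factor (chr7:142650766-142666816), had 1439, 643.6, 170.7, 83.2 and 71.1, and Dlk1, a membrane protein of progenitor cells, had 141.8, 51.1, 19.8, 3.01 and 4.60 (edgeR adjusted p = 0.00218 and 0.00321). H19 and Meg3, noncoding RNAs of the same domains, were lowest by day 3 and stood higher at day 7, with 655.5, 169.2, 149.7, 191.1 and 207.2, and 384, 91.3, 116.1, 141.1 and 166.1. Snrpn rose, from 74.5 over 104, 131.6 and 174.7 to 176.7 (edgeR adjusted p = 0.0137), a call lost without day 0.

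Of 27 genes of cholesterol and fatty acid synthesis none lay more than 2-fold above day 0 on any day and 12 lay below at day 7 (background 16.6%), or 10 with the length trend removed (background 12.7%). A falling trend was found for 4 (background 4.95%), or 1 without day 0, 2 without day 1 and 1 without day 5. Lss, which closes the sterol rings, stood at 130.8, 55.3, 47.3, 65.4 and 27.1, with no trend past the threshold (edgeR adjusted p = 0.086). Of 77 ribosomal protein genes 74 and of 46 nuclear genes of the respiratory chain 45 never passed 2-fold (background 58.6%). Both lists hold short transcripts, with medians of 649 and 756 nucleotides, and their medians at day 7 of 0.23 and 0.22 became -0.03 and 0.07 with the length trend removed, and 0.39 and 0.36 in CPM with TMM. Among 42 DNA and histone modifiers 35 never passed 2-fold (background 58.6%). Hdac9, a class IIa histone deacetylase, had 3.34, 32.4, 92.8, 98.2 and 35.8, the largest change of that list, with its top at day 5 and an edgeR adjusted p of 0.246 for a line.

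Among the Wnt targets, 10 measured, Notum, a secreted Wnt inhibitor, had 6.57, 1.59, 18.6, 32.4 and 122.3, Nkd1, an intracellular one, had 3.11, 2.58, 13.1, 27.6 and 66.5, and Axin2 had 9, 10.6, 13.8, 27.2 and 22.7. These 3 rose (background 4.94%, edgeR adjusted p = 0.00537, 0.00108 and 0.0486). Without day 7, 1 of the 10 had a rising trend. None of the 10 fell, though Lgr5 and Nkd2 lay more than 2-fold below day 0 at day 7. Of 18 ERK targets 6 lay below day 0 at day 7 (background 16.6%), or 5 with the length trend removed (background 12.7%), and 2 above (background 12.2%). Egr1 fell over 184.6, 208.4, 84.6, 48.4 and 40.9 (edgeR adjusted p = 0.00666), and Etv5 rose over 51.9, 68.7, 87.3, 116 and 125.5 (edgeR adjusted p = 0.0105).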

How the data were processed

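RNA-seq was analysed for the 5 OKS+FoxO6 libraries, with the 5 OKS+DR libraries for reference. The authors aligned reads with bowtie2 to GENCODE M13 (GRCm38, mm10) and quantified them with RSEM (versions not given in the sources used here), and deposited expected counts and TPM per gene, with 1 library per file and nothing pooled. The members and lists were chosen with earlier results of these data known. Here a gene was measured with at least 10 expected counts in 1 of the 5 libraries. Changes were taken on log2(TPM + 1), so the pseudocount was 1, and called past 2-fold. The trend was a slope on day from edgeR 4.0.16 in R 4.3.3 (quasi-likelihood, TMM factors, expected counts rounded, 3 residual degrees of freedom), adjusted by Benjamini-Hochberg over 12575 genes. DESeq2 1.42.0 was an alternative. A running median over 1001 genes ordered by effective length was subtracted to remove the length trend. Ratios use library totals, exact 95% intervals, and 3 reads in place of 0. Named genes are list members, the 8 largest rises and falls at day 7 with a trend, and the 4 largest of each onset class with at least 30 counts, without unnamed models and pseudogenes. Promoter sequences are from RefSeq (GRCm38.p6), and gene coordinates from GENCODE M21 (GRCm38). Totals of 1560854 to 2225750 counts limit what is detectable in low genes. With 1 library per day no other test was made.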

Additional observations from a re-analysis of the deposited data

Results flagged for a closer look

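The ectoderm and neural genes (11 measured) had medians of opposite sign in the arms on each later day. Their median change from day 0 in log2(TPM + 1) was -0.07, -0.45, -0.28 and -0.58 at days 1, 3, 5 and 7 under OKS+FoxO6, and 0.15, 0.23, 0.80 and 0.68 in the OKS+DR libraries. At day 7, 3 of the 11 lay more than 2-fold above day 0 and 4 below under OKS+FoxO6, against 4 and 3 in OKS+DR. With the length trend removed the OKS+FoxO6 median at day 7 was -0.10, and the trend was not removed in OKS+DR. Each value is 1 library against 1 library, and the difference between the arms was not tested.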

How the results depend on the processing

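Under the alternatives 52 main counts moved by over 1.5 times and 108 main values did not. Which direction held more genes turned at day 1, from 938 above and 813 below to 810 and 873 in CPM with TMM and 859 and 885 with the length trend removed, and at day 7, from 1529 and 2092 to 1725 and 1600 with the length trend removed. Of 132 list medians, 10 changed sign under at least 1 alternative. At day 7 they did so with the length trend removed for ribosomal proteins (0.23 to -0.03), FoxO targets (-0.03 to 0.41) and autophagy genes (-0.05 to 0.06), and in CPM with TMM for FoxO targets (0.04), autophagy genes (0.07) and CDK inhibitors and p53 targets (-0.16 to 0.04). The others were S phase genes at day 5 (0.02 to -0.04 in CPM with TMM), Wnt targets at days 3 and 5 (0.42 to -0.01 and 0.51 to -0.03 in CPM with TMM), skeletal muscle genes at day 5 (0.18 to -0.34 in CPM with TMM), trophoblast genes at day 3 (0.07 to -0.07 in CPM with TMM) and inflammatory genes at day 3 (-0.23 to 0.48 at 50 counts or more). With a pseudocount of 0.1 the day 7 median of the type I interferon list was 4.08 and that of the interferon gamma list 3.34. With a pseudocount of 5 the genes above and below day 0 numbered 446 and 433 at day 1, 779 and 614 at day 3, 1133 and 768 at day 5, and 1337 below at day 7. With at least 50 counts they were 483 and 340, 789 and 531, 967 and 680, and 767 and 1375, and with no count filter 1896 and 1876, 2545 and 2053, 3176 and 2187, and 2772 and 3234. By step, at least 50 counts gave 483 up and 340 down to day 1, 300 and 202 to day 3, 252 and 114 to day 5, and 101 and 923 to day 7. The counting interval gave 499 up and 339 down to day 3 and 208 down to day 5, and the genes down from day 5 to day 7 were 856 in CPM with TMM and 680 with the length trend removed. Onset counts with at least 50 counts were 261, 221, 145 and 140 up from days 1, 3, 5 and 7, 211 down from day 1, 169 down from day 5, and 524 and 176 passing up and down. Passing genes turned from 1033 up and 550 down to 636 and 648 in CPM with TMM and 729 and 784 with the length trend removed, which also gave 648 down from day 7. The filter alternatives change the number of genes tested, and the cause of the other moves was not tested. Leaving out 1 library gave 298 to 517 rising and 274 to 474 falling genes in the linear trend, lowest without day 1 and without day 0. DESeq2 gave 713 and 666. No paired analysis was possible because the trend was fitted within 1 arm, where each day has a single library and so no 2 replicate numbers to share, and a comparison with OKS+DR paired by day was not run. Low genes are limited by depth.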
